A study of Mus musculus with 4 samples.

Results

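Peritubular myoid and smooth muscle cells were followed in 4 droplet single-cell RNA libraries of mouse testicular organoids (TOs) and testes. After keeping barcodes with 1000 to 5000 genes, at most 20000 unique molecular identifiers (UMIs, each standing for 1 captured transcript) and at most 10% mitochondrial UMIs, a barcode was counted as a muscle cell where Acta2, Myh11 and Cnn1 together gave at least 8 UMIs per 10000, at least 2 of these 3 genes were detected with Myh11 among them, Clec3b, Ebf1 and Adam12 together gave at most 2 UMIs, Sox9 and Cldn11 at most 2, and Ptprc 0. The cells were thus chosen by the measured UMIs of these 9 genes, whose values are given below as a description. Of 41484 kept barcodes, 4265 were muscle cells.

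Peritubular myoid cells are flat contractile cells that wrap each seminiferous tubule. They share the contractile apparatus of smooth muscle, lay down the tubule's basement membrane together with Sertoli cells, push immobile sperm along the tubule, and respond to androgen and to Desert hedgehog from Sertoli cells. The testis also holds vascular smooth muscle cells and pericytes, the mural cells of arterioles and capillaries, which use the same contractile genes and cannot be parted from myoid cells by Acta2, Myh11 and Cnn1.

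The TOs were made from dissociated testes of ICR pups that were aggregated into spheroids in microwells, embedded in basement membrane extract on transwell inserts at the air-liquid interface and later freed from that matrix. The medium held serum replacement, antioxidants, follicle-stimulating hormone and testosterone. TOs were collected after 28 days of culture and control testes came from mice of 28 days, although the label text on dissociation names day 21. The days of culture came on top of the age of the pups, so the groups were not matched for age from birth. Each group had 2 libraries of unsorted cells (TO replicates 1 and 2, testis replicates 1 and 2). The study describes the organoids as collected from independent batches and the testes as biological replicates, but no label ties a library to its animals or batch, and p-values measure the spread between these libraries. The TOs were a cell mixture reassembled in culture, without blood flow, and the control testes were from a single age.

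The 4 matrices held 106577822 and 119966959 UMIs in the TO libraries and 77016449 and 74988295 in the testis libraries. Muscle cells had a median of 4458 and 6257 UMIs in the TO libraries and 2678 and 3416 in the testis libraries. The ranges overlapped, at 1328 to 16863 and 1477 to 15470 UMIs in the TO libraries and 1515 to 15820 and 1623 to 13862 in the testis libraries. Summed over its muscle cells, a library gave 10473319 and 7227014 UMIs in TOs and 1755758 and 1014079 in testes. Doublets were not removed; Scrublet scores marked 8.67% and 8.48% of the muscle cells in TOs and 12.1% and 11.9% in testes. Barcode sequences shared between pairs of libraries numbered 166 among kept barcodes and 2 among muscle cells. The cells lay well above the cut: the median muscle-gene level was 94.2 and 74.1 UMIs per 10000 in the TO libraries and 130 and 144 in the testis libraries. Only 12, 14, 1 and 2 muscle cells (TO replicates 1 and 2, then testis replicates 1 and 2) fell between 8 and 10 UMIs per 10000, with medians of 9.25, 9.02, 9.53 and 8.69. Just outside, 12, 6, 1 and 3 barcodes that met every other part of the rule held 6 to 8 UMIs per 10000, with medians of 7.16, 7.53, 7.51 and 7.49.

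Muscle cells made up a larger share of the kept barcodes in both TO libraries than in both testis libraries, while their share of Vim-positive barcodes depended on the Vim level required. They were 2273 cells (21.1%, exact 95% interval 20.4% to 21.9%) and 1120 cells (11.8%, 11.2% to 12.5%) in the TO libraries. In the testis libraries they were 587 cells (5.43%, 5.01% to 5.88%) and 285 cells (2.73%, 2.42% to 3.06%). The groups did not overlap, with means of 16.5% ± 6.57 and 4.08% ± 1.91 (SD, n = 2 each). With 2 libraries against 2 an exact two-sided permutation test cannot go below p = 0.333, and it gave p = 0.333 here. Kept barcodes include germ cells, so the share was also taken among somatic barcodes. Among kept barcodes with at least 5 Vim UMIs per 10000, Vim being the somatic marker the study used, muscle cells were 11.8% and 6.19% in TOs and 16.6% and 16.5% in testes, again without overlap (difference -7.57 percentage points, exact permutation p = 0.333). With at least 2 Vim UMIs per 10000 the shares overlapped, at 18.5% and 9.76% in TOs and 16.3% and 14.8% in testes (difference -1.45, exact permutation p = 1), and with at least 10 the difference was -15.7. The shares also overlapped with the rule applied after thinning to 3000 UMIs, at 14.7% and 10.2% in TOs and 11.2% and 20.2% in testes (exact permutation p = 0.667). The level of 5 Vim UMIs per 10000 was reached by 17.6% and 22.4% of TO muscle cells and by 44.6% and 54.4% of testis muscle cells. Set against stromal barcodes (at least 3 UMIs of Clec3b, Ebf1 and Adam12, Sox9 and Cldn11 at most 2, Ptprc 0, muscle genes under 8 per 10000), there were 1.42 and 0.389 muscle cells per stromal barcode in TOs and 0.717 and 0.455 in testes, so the groups overlapped. Counting intervals here cover counting error only, and fewer cells of a type in the tissue cannot be told apart from poorer release during digestion.

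**Figure D1:**
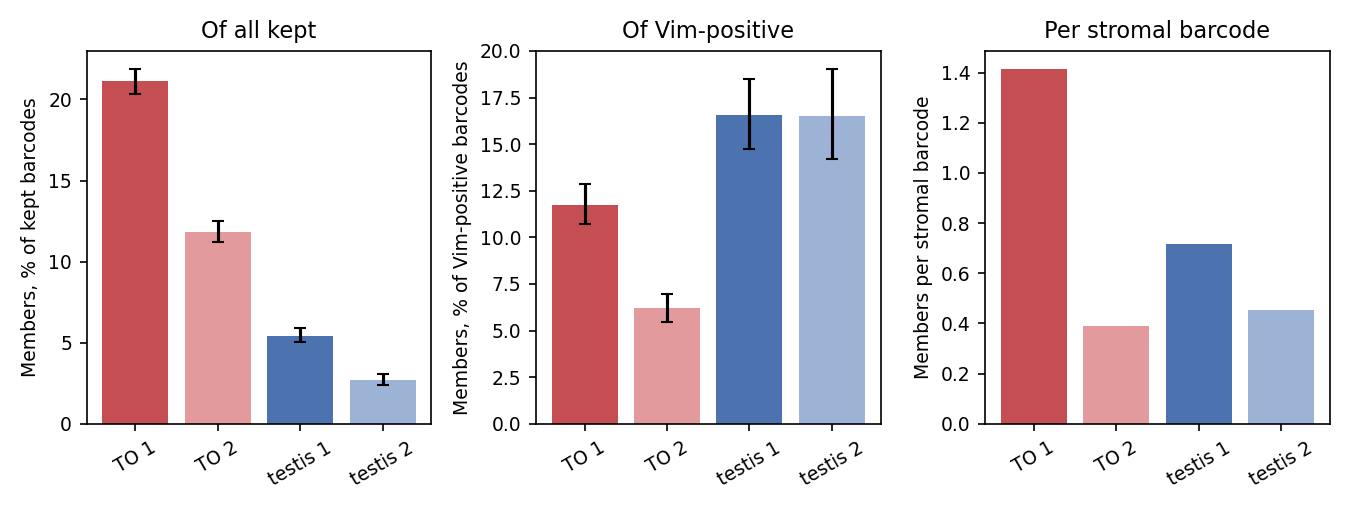
Muscle cells in each library as a percentage of kept barcodes (left), as a percentage of Vim-positive barcodes (middle) and per stromal barcode (right); bars are single libraries and error bars exact 95% binomial intervals. The TO bars of 21.1% and 11.8% stand above the testis bars of 5.43% and 2.73% on the left, and below them in the middle.

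The markers of the class were high in every library. Levels are given from here on as UMIs per 1000000 (CPM) of the summed muscle cells of a library. Acta2 (chr19:34241090-34255590, minus strand, mm10), which encodes smooth muscle alpha-actin, stood at 8594 and 6856 CPM in the TO libraries and 11077 and 13171 CPM in the testis libraries, against 864 and 701 CPM in the other kept TO barcodes and 118 and 147 CPM in the other kept testis barcodes. Myh11, the smooth muscle myosin heavy chain, stood at 1162 and 1069.6 CPM in the TO libraries and 1803 and 1578 CPM in the testis libraries, and Cnn1, the actin-binding calponin, at 243 and 169.9 CPM in the TO libraries and 459.6 and 412 CPM in the testis libraries. All 3 had lower levels in the TO libraries than in the testis libraries, and all 3 are genes of the rule. Tnnt2, a troponin T given as a marker of the class but not used by the rule, was at 425 and 271 CPM in the TO libraries and 285 and 468 CPM in the testis libraries, against 39.4 and 21.1 CPM in the other kept TO barcodes and 4.83 and 5.36 CPM in the other kept testis barcodes. The TO and testis values overlapped (log2 fold change -0.15 ± 0.30, adjusted p = 0.719 by edgeR's quasi-likelihood test with Benjamini-Hochberg adjustment, the test used throughout). After thinning every cell to 1500 UMIs, 38.9% and 30.1% of TO muscle cells and 32.5% and 43.2% of testis muscle cells held a Tnnt2 UMI, whereas it was found in 6.53% and 3.69% of the other kept TO barcodes and in 0.766% and 0.807% of the other kept testis barcodes.

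RNA of other cell types was present in the muscle cells to different degrees. The 12 spermatid markers summed to 186 and 91.0 CPM in TO muscle cells and to 11414 and 21115 CPM in testis muscle cells, which was 1.14% and 2.11% of the testis UMIs. After thinning, the protamine gene Prm1 was found in 91.5% and 95.4% of testis muscle cells and in 83.8% and 95.9% of the other kept testis barcodes, so nearly every testis droplet carried it. The 8 macrophage markers summed to 229 and 155 CPM in TOs and 107 and 45.4 CPM in testes, led by Lyz2, with Ptprc at 0 by the rule. The 8 endothelial markers summed to 50.0 and 50.5 CPM in TOs, led by Cdh5, and to 72.3 and 83.8 CPM in testes, led by Esam, with Tie1 at 0 in every library and Pecam1 at 0 in the testes. The 12 Sertoli markers summed to 1500 and 503 CPM in TOs, led by Defb19, and to 565 and 289 CPM in testes, led by Aard, with Amh at 0 in the testes. The 7 Leydig markers summed to 729 and 182 CPM in TOs, led by Insl3, and to 506 and 198 CPM in testes, led by Fdx1. The Sertoli and Leydig sums were thus highest in TO replicate 1. The 10 spermatogonial and spermatocyte markers summed to 253 and 113 CPM in TOs, led by Zbtb16, and to 497 and 380 CPM in testes, led by Ddx4, and the 8 glial and mesothelial markers to at most 12.3 CPM in any library. The 11 stromal markers, which include 3 genes of the rule, summed to 4817 and 5331 CPM in TOs and 1585 and 1819 CPM in testes. Their most abundant member was Dcn, and Clec3b was at 4.87 and 2.35 CPM in TOs and at 3.99 and 0 CPM in testes, since the rule removed cells with it. The part of other cells' RNA in the results below was not tested beyond the values given.

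Between TO and testis muscle cells, 741 of 14304 genes rose (5.18%) and 2900 fell (20.3%) in TOs, at an adjusted p below 0.01 and a fold change above 2. These shares are the background for the list counts below. The median log2 fold change over all genes tested was 0.07. Log2 fold changes are TO over testis, with their standard error. Of the 2900 lower genes, 2649 (91.3%) had a higher level in the other kept testis barcodes than in the testis muscle cells. Over all 14304 genes tested, 7764 had no higher level there. These barcodes pool every other kind of cell, not spermatids alone. For the other kept TO barcodes, 200 of the 741 higher genes (27.0%) had a higher level there than in the TO muscle cells. All 12 spermatid markers fell, with a median of -8.50, and the 8 lower genes of at least 50 CPM with the greatest change were Tnp2, Prm2, Prm1, Tnp1, Cabs1, H1fnt, Prm3 and 1700027A15Rik, among them the protamines and transition proteins that pack sperm DNA. Among the 7764 genes whose level in the other kept testis barcodes was no higher than in the testis muscle cells, 571 rose (7.35%) and 251 fell (3.23%), with a median of 0.41. When the profile of the whole library, scaled to the spermatid markers found in the muscle cells, was subtracted from the testis sums, a comparison added after seeing the data, edgeR called 0 genes in either direction among 12707 tested, with 2025 at an unadjusted p below 0.05 and a common dispersion of 0.177 in place of 0.0433. Of the 2290 called genes still tested there, all 741 higher genes and 1418 of 1549 lower genes kept their direction. The subtracted profile was scaled to a fraction of 0.610 of the muscle-cell sum in testis replicate 1 and 0.252 in testis replicate 2. It was that of all kept barcodes, muscle cells among them, so RNA of the muscle cells was removed as well. Results given after this subtraction rest on that large and unequal removal. Lower genes named below were no higher in the other kept testis barcodes unless that level is given. Of the higher genes named below, Avpr1a, Abcc9, Lama4, P4ha1, Mest, H2-K1, Vcam1 and Gsn had a higher mean level in the other kept TO barcodes than in the TO muscle cells.

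Some of the calls named below depended on the processing, and the genes kept their sign in each setting given here. Testing only the 4201 genes no higher in the other barcodes of either condition, also chosen after seeing the data, ended the calls of Tcf21 (1.40), Lama2 (1.19), Bgn (1.02), Mfap2 (0.91), Col5a1 (2.01), Cdh11 (1.01), Igf1 (1.04), Tgfbr3 (0.75), Gli3 (0.88), Fkbp5 (0.60), H2-D1 (1.12), B2m (0.91) and Plagl1 (0.87), with the log2 fold change there in brackets. With the rule applied after thinning to 3000 UMIs, Tpm2, Hspb1, Cryab, Prkg1, Ednrb, Atp2b4, Adra1a, Avpr1a, Lama4, Npnt, Fmod, Itga3, Itga7, Itga9, Wnt5a, Fkbp5, H2-K1, B2m, Vcam1, Plagl1, P4ha1 and Piwil1 were not called, with adjusted p from 0.0104 (Ednrb) to 0.0510 (Itga3). Where no gene was left out for its level in other barcodes, Tpm2, Hspb1, Cryab, Prkg1, Adra1a, Itga3, Wnt5a, Vcam1 and Plagl1 were not called. Removing doublets ended the calls of Fn1, Avpr1a, Adra1a and P4ha1, and DESeq2 called neither these genes nor Wnt5a. With sums thinned to the smallest library Atp2b4, Ednrb, Fkbp5, Fn1, Lama4, P4ha1 and Plagl1 were not called. Without an upper limit on genes or UMIs the calls of Itga3, Tnc and Wnt5a ended. Testing genes of any count ended those of Atp2b4, Prkg1 and Wnt5a. Leaving out genes at 2 times in other barcodes ended those of Adra1a, Avpr1a, Fkbp5, P4ha1 and Plagl1.

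Several contractile genes fell in TO muscle cells, Tagln and Des among them. Of 33 contractile and cytoskeletal genes tested, 0 rose and 9 fell (0% and 27.3%, against 5.18% and 20.3% of all genes), with a median of -0.52, and -1.37 after the subtraction from the testis sums. Among the 32 of them that were no higher in the other kept testis barcodes 8 fell (25%), against 3.23% of such genes. Tagln, which encodes the actin-binding protein transgelin, stood at 342 and 279 CPM in the TO libraries and 3151 and 2501 CPM in the testis libraries, a 9.35-fold difference (log2 fold change -3.23 ± 0.31, adjusted p = 4.46e-05). Des, the muscle intermediate filament desmin, stood at 29.9 and 20.5 CPM in the TO libraries and 185 and 216 CPM in the testis libraries (log2 fold change -3.02 ± 0.25, adjusted p = 1.77e-05). Neither gene's TO values came near its testis values. Tagln was detected in 24.0% and 19.8% of thinned TO muscle cells and in 90.5% and 78.6% of testis muscle cells, against 2.37% and 1.96% of the other kept testis barcodes. Des was detected in 4.22% and 2.50% of TO muscle cells and in 22% and 27.7% of testis muscle cells. In the other kept barcodes its shares were 0.868% and 1.34% in TOs and 0.638% and 0.702% in testes. In stromal barcodes they were 2.20% and 3.96% in TOs and 6.23% and 5.26% in testes. Synm, a desmin partner, stood at 17.1 and 16.1 CPM in the TO libraries and 57.5 and 99.6 CPM in the testis libraries (-2.25 ± 0.29, adjusted p = 0.000270). The tropomyosin gene Tpm2 fell less, from 1423 and 1699 CPM in testes to 777 and 609 CPM in TOs (log2 fold change -1.21 ± 0.27, adjusted p = 0.00665). The small heat shock proteins Hspb1 and Cryab, which bind filaments in muscle, changed by -1.53 ± 0.34 and -1.47 ± 0.31, and both were called. Tpm2 and Hspb1 were not called without testis replicate 2, nor was Tpm2 without TO replicate 2.

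Actg2, the gamma-actin of visceral smooth muscle, was at 63.0 and 37.1 CPM in the TO libraries and 271 and 247 CPM in the testis libraries (log2 fold change -2.41 ± 0.27, adjusted p = 0.000126). The other kept testis barcodes held 82.2 and 219 CPM of it. Synpo2 also fell (-1.34 ± 0.26), as did the sarcoglycan gene Sgca (-4.61 ± 0.78), found as 8 UMIs in TO and 32 UMIs in testis muscle cells and at 34.4 and 7.62 CPM in the other kept testis barcodes, above its level in the muscle cells. Synpo2 was not called without TO replicate 2.

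The myosin light chains and their kinase were not called. Myl9, the regulatory light chain, was at 1844 and 1319 CPM in the TO libraries and 3026 and 2489 CPM in the testis libraries (log2 fold change -0.84 ± 0.30, adjusted p = 0.0526) and Myl6, the essential light chain, at 2243 and 2156 CPM in the TO libraries and 3221 and 4226 CPM in the testis libraries (log2 fold change -0.79 ± 0.30, adjusted p = 0.0649). Both had lower TO than testis values in every library, yet neither passed the threshold. Mylk, the kinase that phosphorylates Myl9, was at 1009.8 and 851 CPM in the TO libraries and 1088 and 1291 CPM in the testis libraries (-0.39 ± 0.26), Lmod1 at 293 and 239 CPM in the TO libraries and 283 and 339 CPM in the testis libraries (-0.26 ± 0.22) and the caldesmon gene Cald1 at 1086 and 1029 CPM in the TO libraries and 1337 and 1625 CPM in the testis libraries (-0.52 ± 0.26). Lmod1 values overlapped between the groups. A missed threshold does not show that the levels were alike, and the difference between called and uncalled genes of the list was not tested.

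**Figure D2:**
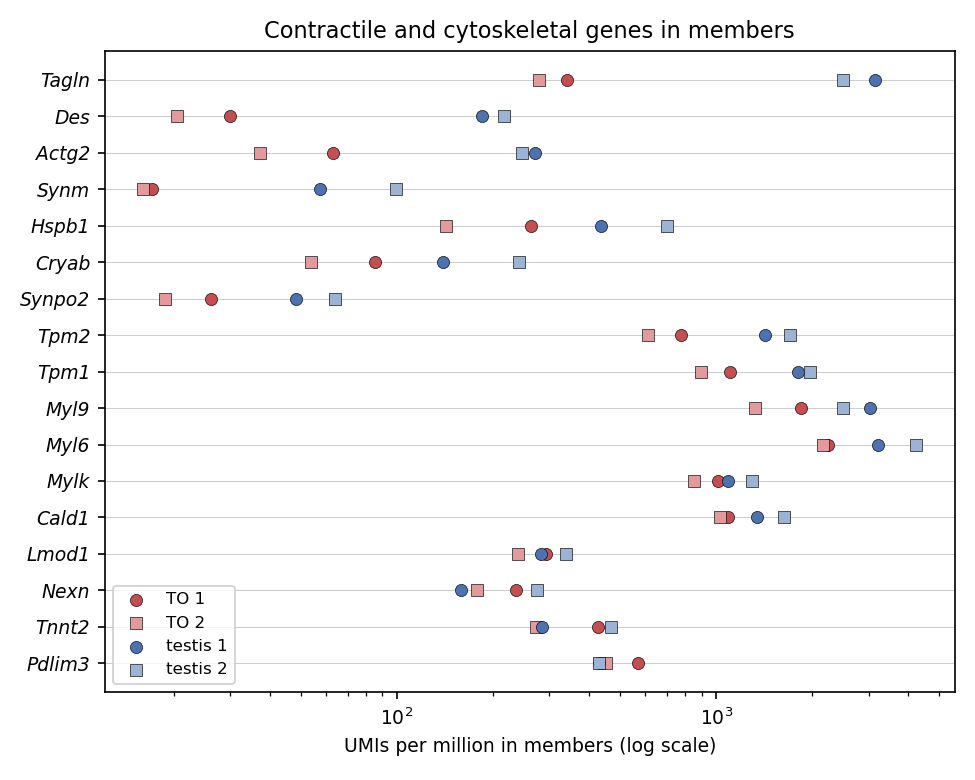
Level of 17 contractile and cytoskeletal genes in the summed muscle cells of each library (x axis, CPM on a log scale); circles and squares are replicates 1 and 2, red TOs and blue testes. Tagln, Des, Actg2 and Synm show the widest gaps at the top, while Mylk, Lmod1 and Tnnt2 lie close together or overlap.

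Many smooth muscle promoters and many immediate-early promoters hold a CArG box, the site of serum response factor, which is why both sets were searched and 4 promoters are printed. In the RefSeq promoters of GRCm38.p6, from 250 bases before to 50 after the start of transcription, a CArG box on either strand (its form is its own reverse complement) was found in 535 of 32851 promoters (1.63%). A gene can have several overlapping promoter windows that hold the same box, so genes were counted too: 488 of 27025 genes (1.81%) had a box in any window. The contractile set searched held 37 genes, Myh11 among them, and was wider than the contractile list of 34, which holds no gene of the rule. A box was found for 4 of the 30 matched contractile genes (13.3%), Ldb3, Myl6, Myl9 and Vcl, and for 2 of the 17 matched immediate-early and heat shock genes (11.8%), Egr2 and Zfp36. Tagln, Actg2, Dtna, Cryab, Smoc2, Nexn and Myh11 of the first list and Egr1, Ier2, Hspa8 and Hsp90aa1 of the second were not matched. The promoters of Myl6 (chr10:128492960-128493259, minus strand), Myl9 (chr2:156775214-156775513, plus strand), Egr2 (chr10:67537619-67537918, plus strand) and Zfp36 (chr7:28379179-28379478, minus strand) are shown 5′ to 3′ on the gene's strand with the CArG box in capitals.
Myl6: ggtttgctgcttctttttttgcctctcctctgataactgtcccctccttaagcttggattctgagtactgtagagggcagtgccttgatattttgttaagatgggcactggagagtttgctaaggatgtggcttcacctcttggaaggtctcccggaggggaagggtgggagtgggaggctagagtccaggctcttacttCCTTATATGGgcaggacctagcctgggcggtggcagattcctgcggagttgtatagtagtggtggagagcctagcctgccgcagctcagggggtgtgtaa
Myl9: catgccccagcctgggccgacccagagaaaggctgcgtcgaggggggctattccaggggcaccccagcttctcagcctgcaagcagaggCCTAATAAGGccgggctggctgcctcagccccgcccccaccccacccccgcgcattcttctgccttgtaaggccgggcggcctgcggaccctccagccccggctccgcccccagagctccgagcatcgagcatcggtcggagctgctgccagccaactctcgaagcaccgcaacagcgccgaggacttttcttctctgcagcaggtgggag
Egr2: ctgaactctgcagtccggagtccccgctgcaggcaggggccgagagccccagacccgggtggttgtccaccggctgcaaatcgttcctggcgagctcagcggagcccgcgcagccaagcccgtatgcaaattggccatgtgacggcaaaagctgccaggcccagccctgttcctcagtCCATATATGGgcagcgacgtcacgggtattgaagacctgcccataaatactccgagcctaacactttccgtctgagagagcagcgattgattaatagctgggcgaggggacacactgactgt
Zfp36: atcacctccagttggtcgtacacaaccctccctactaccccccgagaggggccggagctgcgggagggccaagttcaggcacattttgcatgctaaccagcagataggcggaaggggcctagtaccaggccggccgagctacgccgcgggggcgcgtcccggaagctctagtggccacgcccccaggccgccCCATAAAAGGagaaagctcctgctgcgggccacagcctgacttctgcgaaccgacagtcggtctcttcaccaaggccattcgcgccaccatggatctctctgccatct
The box began 50 bases before the start in Myl6, 161 in Myl9, 72 in Egr2 and 58 in Zfp36. Myl6 and Myl9 had log2 fold changes of -0.79 and -0.84, neither called, whereas Egr2 and Zfp36 rose by 4.08 and 2.25, as described further on. A match of letters is a description of the sequence and not a bound site. The search took only the exact form, CC and GG around a run of A or T, within the window given. A gene without a match was thus not shown to lack an altered or more distant box.

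Regulators of the smooth muscle programme were mostly not called. Of 20 transcription factors and cofactors tested, 1 rose and 1 fell (5.00% each, against 5.18% and 20.3% of all genes). Restricted to the 18 no higher in the other kept testis barcodes, 1 rose and 1 fell (5.56% each, against 7.35% and 3.23%). The list median was 0.43 and turned to -0.037 after the subtraction from the testis sums. Myocd, the myocardin coactivator of serum response factor, was at 96.6 and 162 CPM in the TO libraries and 95.1 and 121 CPM in the testis libraries (log2 fold change 0.24 ± 0.30, adjusted p = 0.537), with TO and testis values that overlapped, and Srf was at 24.0 and 19.1 CPM in the TO libraries and 15.9 and 30.6 CPM in the testis libraries. Tcf21, a mesenchymal factor that is also a stromal marker, was at 586 and 1319 CPM in the TO libraries and 221 and 277 CPM in the testis libraries and rose (log2 fold change 1.92 ± 0.40, adjusted p = 0.00445). It was found in 54.0% and 80.0% of thinned TO muscle cells against 29.1% and 31.9% in testes. In the other kept barcodes the shares were 18.5% and 27.0% in TOs and 1.31% and 0.691% in testes. Hey2, a Notch target of arterial muscle, was at 0.477 and 0.415 CPM in the TO libraries and 6.27 and 22.7 CPM in the testis libraries, from 5, 3, 11 and 23 UMIs (log2 fold change -4.89 ± 0.78, adjusted p = 0.00102). Nr2f2, an orphan nuclear receptor, was at 1202 and 1143 CPM in the TO libraries and 619.7 and 739 CPM in the testis libraries (0.76 ± 0.25, not called). Left without testis replicate 1, Tcf21 was no longer called, nor was Hey2 without testis replicate 2.

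Of 30 receptors, channels and kinases that set muscle tone, 3 rose and 9 fell (10% and 30%, against 5.18% and 20.3% of all genes), with a median of 0.10 that turned to -0.68 after that subtraction. Of the 29 no higher in the other kept testis barcodes 9 fell (31.0%, against 3.23%). Cacna1c, the pore of the L-type calcium channel, was at 45.3 and 44.0 CPM in the TO libraries and 157 and 158 CPM in the testis libraries (log2 fold change -1.85 ± 0.20, adjusted p = 0.000107). Pde3a, a cyclic nucleotide phosphodiesterase, was at 14.5 and 30.6 CPM in the TO libraries and 126 and 187 CPM in the testis libraries (log2 fold change -2.82 ± 0.38, adjusted p = 0.000372). Prkg1, the cGMP-dependent kinase of relaxation, was at 454 and 517 CPM in the TO libraries and 942 and 1126 CPM in the testis libraries (log2 fold change -1.12 ± 0.26, adjusted p = 0.00747). For each of these genes all TO values lay below all testis values. Pln, the brake on the calcium pump of the sarcoplasmic reticulum, was at 4.20 and 2.77 CPM in the TO libraries and 60.4 and 54.2 CPM in the testis libraries (-4.05 ± 0.30) and was also present in the other kept testis barcodes (78.9 and 32.6 CPM). P2rx1 (-5.00 ± 0.62), Ano1 (-3.32 ± 0.35), Ednrb (-1.61 ± 0.32) and Atp2b4 (-1.10 ± 0.21) fell as well. In the other direction, Rgs2, a brake on G protein signalling, was at 512 and 327 CPM in the TO libraries and 79.2 and 110.4 CPM in the testis libraries (log2 fold change 2.12 ± 0.29, adjusted p = 0.000384). Avpr1a, a vasopressin receptor, rose from a low level (1.68 ± 0.39), at 19.5 and 16.1 CPM in the TO libraries and 5.70 and 4.93 CPM in the testis libraries, and was at 13.3 and 23.1 CPM in the other kept TO barcodes. The adrenoceptor gene Adra1a was also called, from 107 and 42 UMIs in TOs and 0 and 1 in testes (TO over testis 23.3-fold by pooled counts, exact counting interval 4.12 to 927). Ednra, a receptor through which endothelin contracts smooth muscle, was at 345 and 346 CPM in the TO libraries and 182 and 180.5 CPM in the testis libraries, and its change of 0.89 ± 0.21 missed the fold threshold with adjusted p = 0.00941. Prkg1 was not called without TO replicate 1 or testis replicate 2, Ednrb without testis replicate 1, Atp2b4 without TO replicate 2, Adra1a without TO replicate 1 or testis replicate 1, and Avpr1a without any library but TO replicate 2.

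The mural genes set part of the testis muscle cells apart from the rest. Of 14 vascular smooth muscle and pericyte genes tested, 2 rose and 7 fell (14.3% and 50.0%, against 5.18% and 20.3% of all genes), with a median of -1.80, the lowest of the 15 lists that are not markers of other cells. Without the cells that held a mural gene, which takes out Rgs5, Higd1b and Rgs4 by construction, the median was -0.077, above the -0.41 of the contractile list. Rgs5, a pericyte gene, was found as 0 and 2 UMIs in the TO libraries and 176 and 150 UMIs in the testis libraries, although the TO sums were deeper (testis over TO 1042-fold by pooled counts, exact counting interval 286 to 8637). Mustn1, a small gene of muscle and skeletal tissue, was at 3.25 and 4.70 CPM in the TO libraries and 314 and 295 CPM in the testis libraries (log2 fold change -6.31 ± 0.30, adjusted p = 2.11e-06), and Notch3, the Notch receptor of mural cells, at 13.4 and 12.5 CPM in the TO libraries and 65.5 and 98.6 CPM in the testis libraries (log2 fold change -2.68 ± 0.26, adjusted p = 5.49e-05). Rgs4 (-3.73 ± 0.30), Higd1b (-5.85 ± 0.54), Cox4i2 (-4.65 ± 0.54) and Ndufa4l2 (-6.37 ± 0.30) fell too. Ndufa4l2 had 112 and 63.1 CPM in the other kept testis barcodes, near its level of 92.8 and 93.7 CPM in the muscle cells. Steap4 rose (2.50 ± 0.26), at 118 and 114 CPM in the TO libraries and 16.5 and 24.7 CPM in the testis libraries. Abcc9 also rose (2.40 ± 0.37), at 29.8 and 34.3 CPM in the TO libraries and 4.56 and 7.89 CPM in the testis libraries, and was at 45.7 and 50.2 CPM in the other kept TO barcodes. Pdgfrb, the receptor through which pericytes are recruited, was at 29.4 and 34.2 CPM in the TO libraries and 39.9 and 53.3 CPM in the testis libraries (log2 fold change -0.57 ± 0.25, adjusted p = 0.104), with no overlap and no call, and its direction turned without the cells that held a mural gene.

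Mural genes were concentrated in a minority of the testis muscle cells. At least 1 UMI of Rgs5, Higd1b, Gja4 or Rgs4, genes picked after seeing the values, was held by 98 (16.7%) and 60 (21.1%) testis muscle cells and by 44 (1.94%) and 31 (2.77%) TO muscle cells. After thinning to 1500 UMIs the shares were 12.6% and 15.4% in testes and 0.577% and 1.16% in TOs, against 1.43% and 0.765% of the other kept testis barcodes and 0.530% and 0.404% of the other kept TO barcodes. Among stromal barcodes they were 4.27% and 8.13% in testes and 0.251% and 0.243% in TOs. The testis shares of muscle cells were thus the highest, without overlap with any of the other shares. The split used these genes, so what follows is a description of the cells on both sides. Within testis replicate 1, cells with a mural gene held 7853 CPM of Tagln and the rest 2231 CPM. In testis replicate 2 the same levels were 7080 and 1325 CPM. Des was at 603 and 103 CPM in replicate 1 and at 512 and 140 CPM in replicate 2, Notch3 at 327 and 14.3 CPM and at 420 and 16.1 CPM, Pde3a at 619.9 and 29.96 CPM and at 816 and 26.0 CPM. Other genes ran the opposite way. Tnnt2 was at 27.9 CPM in cells with a mural gene and 336 CPM in the rest in replicate 1, and at 43.4 and 578 CPM in replicate 2. The hedgehog receptor Ptch1 (31.3 and 345 CPM, then 33.8 and 352 CPM), the retinoic acid hydroxylase Cyp26b1 (45.3 and 946 CPM, then 116 and 1311 CPM) and the basement membrane collagen Col4a4 (258 and 2989 CPM, then 290 and 2833 CPM) followed the same pattern.

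Leaving the cells with a mural gene out of both groups, a comparison added after seeing the data, ended some calls and left others. Notch3 (-0.26), Pde3a (-0.35), Ednrb (-0.34), Ano1 (-1.11), P2rx1 (-3.06), Prkg1 (-0.82), Tpm2 (-0.98), Cryab (-0.99), Atp2b4 (-0.96) and Avpr1a (1.40) were no longer called, and Synpo2 changed sign (0.07). Pdgfrb, uncalled in both fits, turned from -0.57 to 1.08, at 29.7 and 32.7 CPM in the remaining TO cells and 14.98 and 13.6 CPM in the remaining testis cells. Tagln (-2.56), Des (-2.28), Synm (-2.25), Actg2 (-2.29), Hspb1 (-1.67), Cacna1c (-1.24) and Mustn1 (-4.25) stayed called and lower in TOs. Testis muscle cells without a UMI of a mural gene thus still held 2231 and 1325 CPM of Tagln, against 344 and 274 CPM in such TO cells. Mural cells with no captured UMI of these genes would stay among them, and Mustn1 was still at 87.2 and 49.6 CPM in the remaining testis cells. The part of such cells in the calls that stayed was not tested. TO cells with a mural gene held only 3 and 4 UMIs of Notch3 and 2 and 3 of Mustn1. Whether the split marked mural cells in TOs could not be told from so few. Of genes described further on, Itga7 (-0.95), Mfap2 (1.21), Fkbp5 (0.98), B2m (1.23), Vcam1 (1.45), Plagl1 (1.25) and P4ha1 (0.86) also lost their call. In all, 660 genes were higher and 2683 lower in TOs without the mural-gene cells. Rgs5, Higd1b, Gja4 and Rgs4 were then at 0 by construction.

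**Figure D3:**
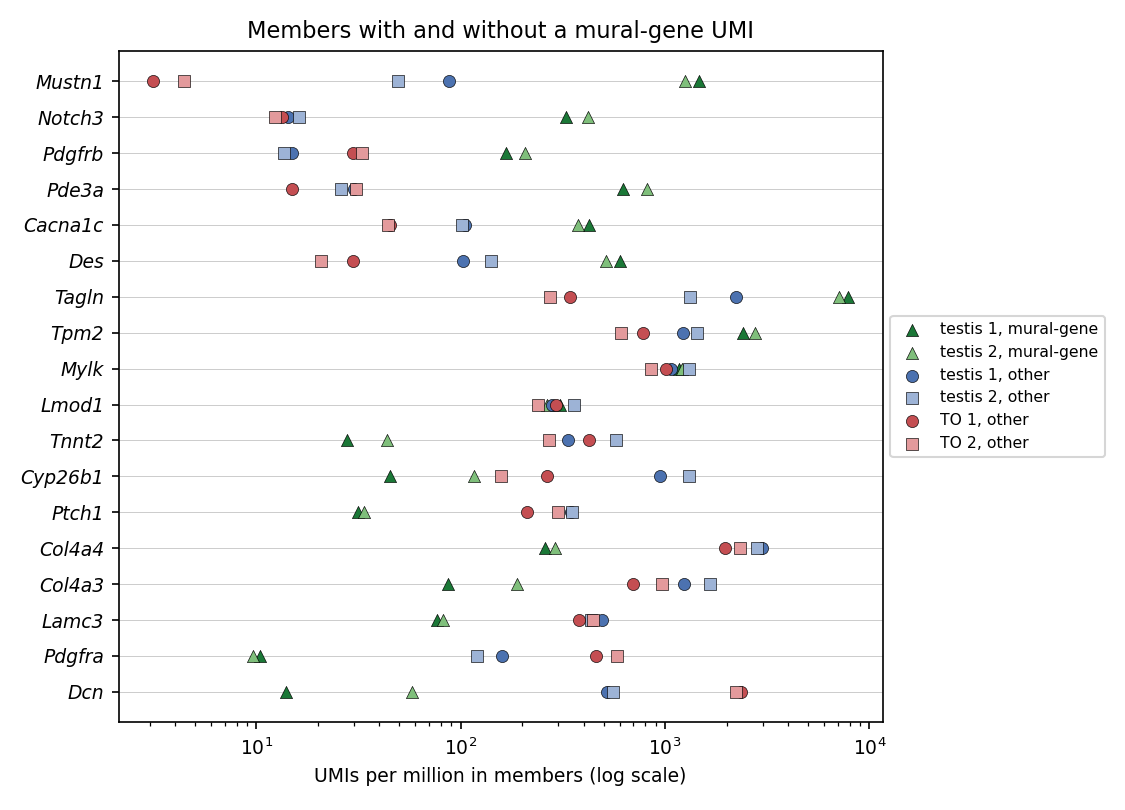
Level of 18 genes (x axis, CPM on a log scale) in testis muscle cells with a UMI of Rgs5, Higd1b, Gja4 or Rgs4 (green triangles), in the other testis muscle cells (blue) and in the other TO muscle cells (red), with 1 symbol per library. Notch3 and Pde3a are highest in the green symbols, Tagln and Des are lowest in the red ones, and Tnnt2, Ptch1 and Col4a4 are lowest in the green ones.

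For most basement membrane genes no change was called. Of 24 tested, 4 rose and 3 fell (16.7% and 12.5%, against 5.18% and 20.3% of all genes). Restricted to the 22 no higher in the other kept testis barcodes, 2 rose and 3 fell (9.09% and 13.6%, against 7.35% and 3.23%). The list median was 0.40, turned to -0.38 after the subtraction from the testis sums and was 0.23 without the mural-gene cells. The collagen IV chains Col4a3 and Col4a4 were not called. Col4a3 was at 693 and 973 CPM in the TO libraries and 1050.3 and 1353 CPM in the testis libraries (-0.55 ± 0.29). Col4a4 was at 1963 and 2332 CPM in the TO libraries and 2542 and 2313 CPM in the testis libraries (-0.21 ± 0.29), with values that overlapped, and the laminin chain Lamc3 was at 383 and 441 CPM in the TO libraries and 425 and 362 CPM in the testis libraries (0.03 ± 0.24, not called). Lama2, the laminin chain of muscle basement membranes, was at 1290.3 and 2118 CPM in the TO libraries and 510.3 and 517 CPM in the testis libraries and rose (log2 fold change 1.71 ± 0.32, adjusted p = 0.00276). Col15a1, a collagen that links basement membrane to interstitium, was at 154 and 207 CPM in the TO libraries and 15.4 and 7.89 CPM in the testis libraries and showed the greatest rise of the list (log2 fold change 3.84 ± 0.34, adjusted p = 3.09e-05). Both genes' TO values lay above all testis values. Fbln1 (1.88 ± 0.24) and Lama4 (1.76 ± 0.33) rose as well, whereas Col18a1 (-2.04 ± 0.36), Lama5 (-2.42 ± 0.50) and Npnt (-4.02 ± 0.73) fell. Without the mural-gene cells Col18a1 (-0.18), Lama5 (-0.38) and Npnt (-3.22) were not called, the last with adjusted p = 0.0111. Without testis replicate 1 neither these genes nor Lama4 were called.

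In the fibrillar and interstitial matrix list, 5 of 31 genes rose and 4 fell (16.1% and 12.9%, against 5.18% and 20.3% of all genes). Restricted to the 28 no higher in the other kept testis barcodes, 4 rose and 3 fell (14.3% and 10.7%, against 7.35% and 3.23%). The list median was 0.25, turned to -0.47 after the same subtraction and was 0.048 without the mural-gene cells. The small proteoglycan Dcn was at 2349.8 and 2213 CPM in the TO libraries and 438 and 454 CPM in the testis libraries (log2 fold change 2.32 ± 0.27, adjusted p = 0.000162). It was found in 84.9% and 82.6% of thinned TO muscle cells against 45.0% and 41.8% in testes. In the other kept barcodes the shares were 44.1% and 38.5% in TOs and 4.32% and 1.77% in testes. Dcn is also a marker of stroma, and stood at 1457 and 2279.7 CPM in the other kept TO barcodes. Bgn (1.54 ± 0.31), Mfap2 (1.43 ± 0.30), Col5a1 (2.55 ± 0.45) and Fn1 (1.34 ± 0.29) rose, at lower levels. Col8a1, a short-chain collagen of vessel walls, was at 1.34 and 1.66 CPM in the TO libraries and 22.8 and 85.8 CPM in the testis libraries and fell (-5.15 ± 0.62), as did Fmod (-2.61 ± 0.38) and Postn (-4.66 ± 0.82). Postn rested on 9 UMIs in TO and 32 UMIs in testis muscle cells and was not called without testis replicate 2. Tnc was called from 3 UMIs in TO and 12 UMIs in testis muscle cells (testis over TO 25.6-fold by pooled counts, counting interval 6.90 to 141), and was at 9.64 and 10.7 CPM in the other kept testis barcodes. Without testis replicate 2, Bgn and Mfap2 were not called, and Fn1 was not called without TO replicate 2 or testis replicate 1. The main fibrillar collagens were not called, with Col1a1 at 895 and 1648 CPM in the TO libraries and 959 and 850.0 CPM in the testis libraries (0.47 ± 0.34) and Col3a1 at 869.9 and 971 CPM in the TO libraries and 778 and 671 CPM in the testis libraries (0.31 ± 0.25).

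Of 21 integrin and focal adhesion genes, 1 rose and 6 fell (4.76% and 28.6%, against 5.18% and 20.3% of all genes), with a median of -0.24, and -0.99 after the subtraction from the testis sums. Of the 19 no higher in the other kept testis barcodes 5 fell (26.3%, against 3.23%). The integrin chains Itga8, Itga7 and Itga9 fell. Itga8, a partner of nephronectin and fibronectin, was at 15.4 and 29.7 CPM in the TO libraries and 76.9 and 112 CPM in the testis libraries (log2 fold change -2.09 ± 0.35, adjusted p = 0.00146). Itga7, the laminin receptor chain of muscle, was at 18.2 and 24.5 CPM in the TO libraries and 53.5 and 47.3 CPM in the testis libraries (-1.28 ± 0.27), and Itga9 at 61.4 and 58.5 CPM in the TO libraries and 111 and 161 CPM in the testis libraries (-1.20 ± 0.23). Itga3 (-2.46 ± 0.58), Lims2 (-2.15 ± 0.31) and Cdh13 (-4.67 ± 0.60) also fell, and Cdh13 had 47.6 and 47.2 CPM in the other kept testis barcodes, above its level in the muscle cells. Itga9 was not called without testis replicate 2, Itga7 without TO replicate 1 or testis replicate 1, and Itga3 without either TO library or testis replicate 1. The mesenchymal cadherin Cdh11 was at 118 and 174 CPM in the TO libraries and 54.7 and 43.4 CPM in the testis libraries and rose (log2 fold change 1.53 ± 0.28, adjusted p = 0.00223).

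Of 22 growth factor and retinoid genes of the spermatogonial niche tested, 4 rose and 3 fell (18.2% and 13.6%, against 5.18% and 20.3% of all genes). Restricted to the 17 no higher in the other kept testis barcodes, 2 rose and 3 fell (11.8% and 17.6%, against 7.35% and 3.23%). The list median was 0.31 and turned to -0.39 after the subtraction from the testis sums. Cyp26b1, which breaks down retinoic acid around the tubule, was at 263 and 158 CPM in the TO libraries and 799 and 1067 CPM in the testis libraries (log2 fold change -2.19 ± 0.31, adjusted p = 0.000461). It was detected in 24.0% and 15.9% of thinned TO muscle cells and 60.1% and 62.8% of testis muscle cells, against 1.86% and 1.37% of the other kept testis barcodes. This fall was larger without the mural-gene cells (-2.46). Igf1 was at 823 and 727 CPM in the TO libraries and 270.0 and 250.5 CPM in the testis libraries (log2 fold change 1.54 ± 0.24, adjusted p = 0.000853) and the chemokine gene Cxcl12 at 149 and 90.8 CPM in the TO libraries and 23.9 and 23.7 CPM in the testis libraries (log2 fold change 2.29 ± 0.29, adjusted p = 0.000278). Both had higher levels in the other kept TO barcodes than in the testis muscle cells. Inhba, the activin A subunit, was at 51.8 and 45.0 CPM in the TO libraries and 9.68 and 3.94 CPM in the testis libraries (2.67 ± 0.36), and Fgf7 rose from 3 UMIs in testis to 298 UMIs in TO muscle cells (TO over testis 15.5-fold by pooled counts, counting interval 5.27 to 75.8). Wnt5a fell (-1.11 ± 0.25), and its call was lost on leaving out any of the 4 libraries. Gdnf, the ligand that keeps spermatogonial stem cells and that myoid cells are known to make, was at 9.45 and 9.55 CPM in the TO libraries and 12.5 and 5.92 CPM in the testis libraries (log2 fold change -0.07 ± 0.43, adjusted p = 0.910), with overlapping values. At this depth it was seen in 1.24% and 1.70% of thinned TO muscle cells and in 1.36% and 0.702% of testis muscle cells. In the other kept barcodes the shares were 0.765% and 0.551% in TOs and 0.234% and 0.157% in testes.

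Most receptors of the list were not called. Of 27 steroid, hedgehog, PDGF and other receptor genes tested, 3 rose and 0 fell (11.1% and 0%, against 5.18% and 20.3% of all genes). Restricted to the 24 no higher in the other kept testis barcodes, 3 rose and 0 fell (12.5% and 0%, against 7.35% and 3.23%). The list median was 0.64, and 0.097 after the subtraction from the testis sums. Ptch1, receptor and target of Desert hedgehog, was at 212 and 297 CPM in the TO libraries and 294 and 287 CPM in the testis libraries (log2 fold change -0.22 ± 0.25, adjusted p = 0.510), and Gli1, another hedgehog target, at 19.2 and 28.0 CPM in the TO libraries and 22.8 and 20.7 CPM in the testis libraries (0.07 ± 0.32). Ptch1 values overlapped between the groups, and both genes missed the threshold. Pdgfra, a PDGF receptor of mesenchymal cells, was at 459 and 579.6 CPM in the TO libraries and 134 and 97.6 CPM in the testis libraries and rose (log2 fold change 2.12 ± 0.28, adjusted p = 0.000299), and was detected in 47.2% and 56.5% against 19.8% and 13.7% of thinned cells. It also stood at 200.4 and 329.9 CPM in the other kept TO barcodes. Tgfbr3 (1.26 ± 0.23) and Gli3 (1.39 ± 0.28) rose as well, and Tgfbr3 was not called without testis replicate 2.

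Among genes known to respond to androgen or glucocorticoid, 3 of 11 rose and 0 fell (27.3% and 0%, against 5.18% and 20.3% of all genes). Restricted to the 8 no higher in the other kept testis barcodes, 3 rose and 0 fell (37.5% and 0%, against 7.35% and 3.23%). The list median was 0.66, and 0.99 after the subtraction. Errfi1, a feedback inhibitor of the EGF receptor, was at 1676 and 1659.7 CPM in the TO libraries and 255 and 322 CPM in the testis libraries (log2 fold change 2.50 ± 0.27, adjusted p = 0.000107). Cebpd, a transcription factor induced by glucocorticoid and by cytokines, was at 549 and 528 CPM in the TO libraries and 95.1 and 131 CPM in the testis libraries (log2 fold change 2.23 ± 0.25, adjusted p = 0.000126), and Fkbp5, a chaperone partner of steroid receptors, at 279.8 and 394 CPM in the TO libraries and 162 and 143 CPM in the testis libraries (log2 fold change 1.11 ± 0.26, adjusted p = 0.00838). The TO and testis values of Errfi1 and Cebpd were far apart, those of Fkbp5 close, and Fkbp5 lost its call in 9 of the alternative analyses, among them each that left out testis replicate 1, testis replicate 2 or TO replicate 2.

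Many immediate-early genes, which are switched on within minutes of a stimulus, rose in TO muscle cells. Of 21 immediate-early and heat shock genes tested, 9 rose and 2 fell (42.9% and 9.52%, against 5.18% and 20.3% of all genes), with a median of 1.76, and 0.93 after the subtraction from the testis sums. Junb, an AP-1 subunit, was at 2601 and 1698 CPM in the TO libraries and 424 and 346 CPM in the testis libraries (log2 fold change 2.43 ± 0.31, adjusted p = 0.000282). Fos, its partner, was at 2126 and 879 CPM in the TO libraries and 429 and 291 CPM in the testis libraries (log2 fold change 2.01 ± 0.41, adjusted p = 0.00441), and the antiproliferative gene Btg2 at 1669 and 1285 CPM in the TO libraries and 307 and 389.5 CPM in the testis libraries (log2 fold change 2.05 ± 0.28, adjusted p = 0.000381). All TO values of these genes lay above all testis values. Ier2 (2.36 ± 0.42), Egr1 (2.24 ± 0.39) and Nr4a1 (2.01 ± 0.41) rose too. When only genes no higher in the other barcodes of either condition were tested, Fos (1.52), Ier2 (1.86), Egr1 (1.74), Egr2 (3.60), Nr4a1 (1.52) and Hspa1b (1.48) were still higher in TOs but not called. Of the genes with a CArG box shown above, Zfp36, which destabilises cytokine messages, was at 573 and 378 CPM in the TO libraries and 98.0 and 95.7 CPM in the testis libraries (log2 fold change 2.25 ± 0.26, adjusted p = 0.000157), and Egr2 was at 42.9 and 20.3 CPM in the TO libraries and 2.28 and 0.986 CPM in the testis libraries (log2 fold change 4.08 ± 0.60, adjusted p = 0.000649). For each of these 8 genes the higher TO value was that of TO replicate 1. Hspa1b rose (1.96 ± 0.32) and its near-identical neighbour Hspa1a did not pass the threshold (1.76 ± 0.44); reads of these copies cannot be assigned with certainty. The chaperone genes Hsp90aa1 (-1.80 ± 0.33) and Dnajb1 (-2.30 ± 0.28) fell, and both were higher in the other kept testis barcodes (1526 and 1110.3 CPM, 301 and 236 CPM) than in the muscle cells (985 and 781 CPM, 182 and 135 CPM). Dissociation of tissue is known to switch on immediate-early genes, and its part was not tested. Junb was at 1116 and 1032 CPM in the other kept TO barcodes and 73.2 and 46.5 CPM in the other kept testis barcodes, and Fos at 875 and 558 CPM in the other kept TO barcodes and 57.6 and 28.2 CPM in the other kept testis barcodes. These pools are unlike mixtures of cells. After thinning, Vim was found in 40.3% and 40.3% of the other kept TO barcodes and in 10.8% and 5.82% of the other kept testis barcodes.

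**Figure D4:**
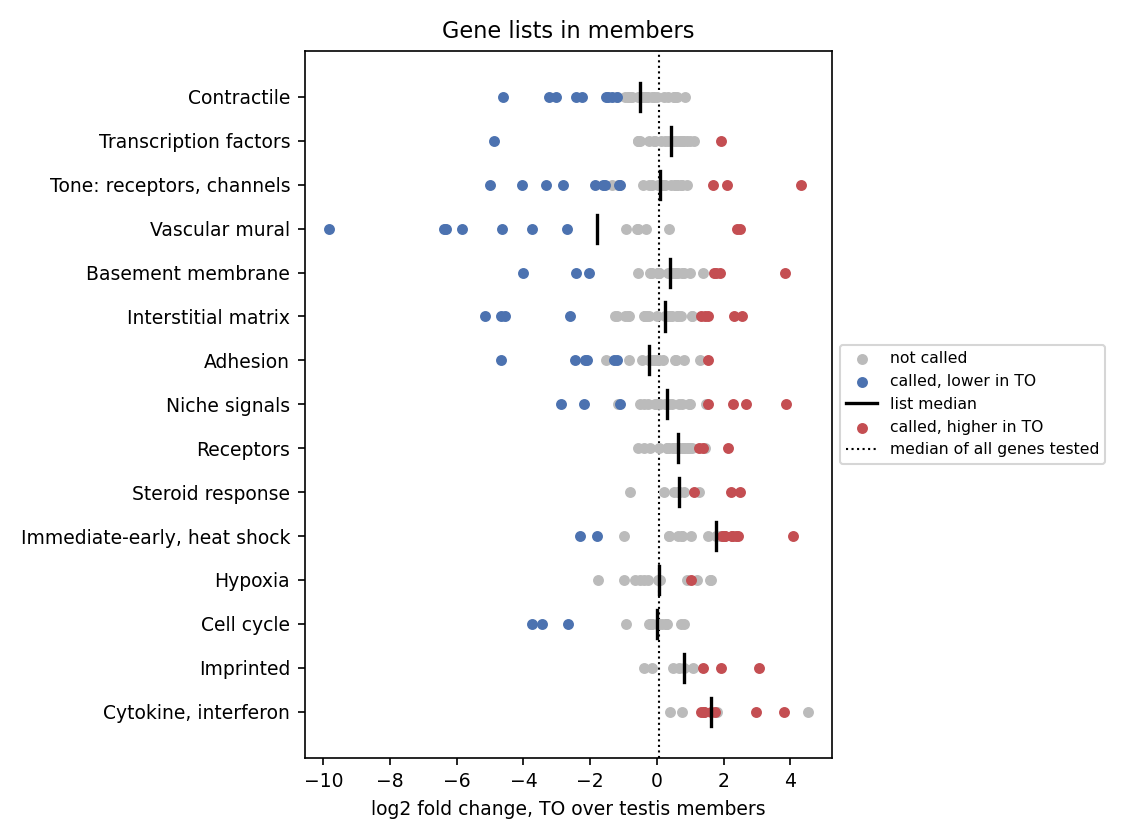
Log2 fold change of TO over testis muscle cells (x axis) for each tested gene of 15 lists (rows); red and blue points passed the test, grey did not, black bars are list medians and the dotted line is the median of all genes tested, 0.07. The immediate-early list (median 1.76) lies furthest right and the vascular mural list (median -1.80) furthest left.

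The remaining lists were short. Of 11 chemokine, cytokine and interferon genes tested, 7 rose and 0 fell (63.6% and 0%, against 5.18% and 20.3% of all genes), with a median of 1.62. Restricted to the 6 no higher in the other kept testis barcodes, 3 rose and 0 fell (50% and 0%, against 7.35% and 3.23%). A further 10 were at too few UMIs or too much higher in other barcodes to be tested. The MHC class I genes H2-K1 and H2-D1, are near-identical in sequence and so uncertain as single genes. H2-K1 was at 448 and 312 CPM in the TO libraries and 124 and 176 CPM in the testis libraries (1.32 ± 0.27). H2-D1 was at 350.2 and 437 CPM in the TO libraries and 81.4 and 175 CPM in the testis libraries (1.62 ± 0.34), and their partner B2m was at 336 and 353 CPM in the TO libraries and 94.0 and 165 CPM in the testis libraries (1.40 ± 0.28). Vcam1 (1.74 ± 0.40), Icam1 (2.96 ± 0.27) and Il33 (3.81 ± 0.51) rose. H2-K1 and Vcam1 were higher in the other kept TO barcodes (464 and 457 CPM, 372 and 298 CPM) than in the TO muscle cells, and Il33 rested on 5 UMIs in testis muscle cells. Without testis replicate 1, B2m, H2-K1 and H2-D1 were not called, nor Vcam1 without testis replicate 2. Of 9 imprinted growth genes, 3 rose and 0 fell (33.3% and 0%, against 5.18% and 20.3% of all genes), with a median of 0.81 (0.38 after the subtraction). Restricted to the 8 no higher in the other kept testis barcodes, 3 rose and 0 fell (37.5% and 0%, against 7.35% and 3.23%). The higher genes were Peg3 (1.93 ± 0.29), Plagl1 (1.38 ± 0.32) and Mest (3.06 ± 0.55), the last from 5 UMIs in testis muscle cells. Plagl1 was not called without TO replicate 2 or testis replicate 1. Of 14 hypoxia genes 1 rose and 0 fell (7.14% and 0%, against 5.18% and 20.3% of all genes), with a median of 0.05 that turned to -0.39 after the subtraction. Restricted to the 10 no higher in the other kept testis barcodes, 1 rose and 0 fell (10% and 0%, against 7.35% and 3.23%). The higher gene was P4ha1 (1.03 ± 0.23), a collagen prolyl hydroxylase subunit at 132 and 94.5 CPM in the other kept TO barcodes. P4ha1 was not called without TO replicate 1, testis replicate 1 or testis replicate 2. Of 15 cell division genes 0 rose and 3 fell (0% and 20%, against 5.18% and 20.3% of all genes), with a median of 0.01. Only 3 of the 15 were no higher in the other kept testis barcodes, and 1 of these fell. Birc5 (-3.44 ± 0.35) and Ccnb1 (-3.75 ± 0.36) fell and were higher in the other kept testis barcodes (163 and 157 CPM, 108 and 66.0 CPM) than in the testis muscle cells. Ccnd1 also fell, and its log2 fold change of -2.68 turned to 0.72 without the mural-gene cells.

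Of the spermatogonial and spermatocyte markers 6 were tested and 2 fell, Ddx4 (-3.63 ± 0.43) and Piwil1 (-3.07 ± 0.64), both more abundant in the other kept testis barcodes. None of 6 Sertoli, 2 Leydig or 2 glial markers tested was called, with Aard at 0.60 ± 0.31, Defb19 at 1.12 ± 0.63, Fdx1 at -0.31 ± 0.21, Insl3 at 1.24 ± 1.09 and S100b at 1.37 ± 0.67, and no macrophage marker was tested. Lyz2, the most abundant of them, was left out because its level was at least 5 times higher in the other kept TO barcodes (1067 and 1675 CPM) than in the TO muscle cells (192 and 108 CPM). Of 3 endothelial markers, Cdh5 rose, at 32.4 and 39.6 CPM in the TO libraries and 2.85 and 2.96 CPM in the testis libraries (3.59 ± 0.40), and Esam fell, at 0.382 and 0.138 CPM in the TO libraries and 52.4 and 61.1 CPM in the testis libraries (-7.58 ± 0.42). Pecam1 was at 4.01 and 3.74 CPM in TOs and at 0 in both testis libraries. In testis muscle cells with a mural gene Esam was at 272 and 275 CPM, against 9.53 and 6.20 CPM in the rest. The 7 stromal markers tested include Ebf1, a gene of the rule, which capped it and kept it from being called (-0.92 ± 0.21). Among the others 4 rose and 0 fell: Dcn, Pdgfra, Tcf21 and Gsn (1.37 ± 0.27). The median of 1.37 is over all 7, Ebf1 included. Neither Gsn, Tcf21 nor Piwil1 was called without testis replicate 1. Gsn, the actin-severing gelsolin, was at 1108 and 891 CPM in the TO libraries and 309 and 445 CPM in the testis libraries, below its level of 1112 and 1379 CPM in the other kept TO barcodes.

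Among called genes of at least 50 CPM, the 8 with the greatest rise in TO muscle cells were C7, Adam23, Efemp1, Frmd5, Serpina3n, Plcxd3, Mmp2 and Mgp. C7 (chr15:4988762-5063740, minus strand, mm10), a component of the complement membrane attack complex, was at 3619 and 2236 CPM in the TO libraries and 7.97 and 18.7 CPM in the testis libraries (log2 fold change 7.83 ± 0.50, adjusted p = 5.45e-06), from 14 and 19 UMIs in the testis libraries. Mgp, the matrix Gla protein that inhibits calcification, was at 6347 and 13646 CPM in the TO libraries and 327 and 589.7 CPM in the testis libraries (log2 fold change 4.44 ± 0.53, adjusted p = 0.000184). Adam23 was at 407 and 482 CPM in the TO libraries and 7.40 and 2.96 CPM in the testis libraries, Efemp1, a fibulin, at 204 and 156 CPM in the TO libraries and 1.14 and 4.93 CPM in the testis libraries, and Serpina3n, a secreted protease inhibitor, at 345 and 299 CPM in the TO libraries and 5.70 and 3.94 CPM in the testis libraries. In none of these 5 genes did a TO value come near a testis value. Their log2 fold changes ranged from 4.44 (Mgp) to 7.83 (C7), with 6.25 for Adam23, 6.08 for Efemp1 and 5.96 for Serpina3n. Frmd5 (6.01 ± 0.41), Plcxd3 (5.95 ± 0.32) and the gelatinase Mmp2 (4.50 ± 0.37) completed the set. C7 and Mgp were also abundant in the other kept TO barcodes (1006 and 615 CPM, 2379 and 5592 CPM), below their level in the muscle cells of the same library.

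Because the 8 greatest falls were spermatid genes, the lower genes of at least 50 CPM that were no higher in the other kept testis barcodes were also listed, a choice made after seeing the values. There were 110. The greatest fall was Map3k7cl, found as 1 UMI in each TO library and 271 and 105 UMIs in the testis libraries (testis over TO 1201-fold by pooled counts, counting interval 330 to 9957). S100a6, a calcium-binding protein, was at 131 and 98.9 CPM in the TO libraries and 1789 and 1704 CPM in the testis libraries (log2 fold change -3.97 ± 0.29, adjusted p = 1.01e-05), and the LIM protein gene Crip1 at 13.5 and 8.44 CPM in the TO libraries and 772 and 334 CPM in the testis libraries (log2 fold change -5.70 ± 0.47, adjusted p = 1.81e-05). Eya2 (-6.27 ± 0.38), Gm13889 (-6.17 ± 0.29), Vit (-4.91 ± 0.25), Inpp4b (-4.82 ± 0.25), Dgkb (-4.53 ± 0.26), Aspn (-4.53 ± 0.32), Tppp3 (-4.16 ± 0.40), Ntn1 (-4.04 ± 0.55) and Rcan2 (-3.82 ± 0.30) followed. Of these, S100a6 (-4.20), Eya2 (-6.49), Vit (-4.97) and Ntn1 (-4.24) changed little when the mural-gene cells were left out, as did Tppp3 (-3.98), and Crip1 (-3.61), Inpp4b (-2.63), Dgkb (-2.62), Gm13889 (-3.34), Aspn (-2.19) and Rcan2 (-1.55) were reduced but called. Fabp4, a fatty acid binding protein, was at 3.91 and 5.12 CPM in the TO libraries and 36.5 and 249 CPM in the testis libraries, and its log2 fold change of -4.97 turned to 0.69 without the mural-gene cells.

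To see which differences went beyond those of neighbouring stroma, the TO against testis change in muscle cells was compared with that in the 5932 stromal barcodes of the same libraries, by the interaction term of a model with library as a block. Of 15462 genes tested, the change was higher in muscle cells for 530 (3.43%) and lower for 533 (3.45%), 6.87% in all, at an adjusted p below 0.05. The stromal class was capped at 8 muscle-gene UMIs per 10000, which bounds how far muscle genes can rise in it. Without the block for library the counts were 26 and 24.

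Mgp was at 5232 and 9389 CPM in TO stromal barcodes and 1257 and 2823 CPM in testis stromal barcodes, and its change was larger in muscle cells on the log2 scale by 2.37 ± 0.15, adjusted p = 7.92e-06. C7 was at 1927 and 908 CPM in TO stromal barcodes and 50.2 and 95.2 CPM in testis stromal barcodes, and its change was larger in muscle cells by 3.44 ± 0.24, adjusted p = 1.23e-05. Efemp1 was at 304 and 349 CPM in TO stromal barcodes and 145 and 179.5 CPM in testis stromal barcodes, so testis stroma held it where testis muscle cells had 7 UMIs, and its change was larger in muscle cells by 4.94 ± 0.42, adjusted p = 3.56e-05. Col15a1 (3.42 ± 0.21, adjusted p = 7.92e-06) and Cxcl12 (3.19 ± 0.33, adjusted p = 0.000121) also had a larger change in muscle cells, and Cxcl12 was at 156 and 178 CPM in TO stromal barcodes and 264 and 478 CPM in testis stromal barcodes, where the TO values were the lower. In the contractile list, 23 of 33 genes had a lower change in muscle cells and 1, Actg2, a higher one. Tagln differed by -1.27 ± 0.33, adjusted p = 0.0398 and Des by -2.46 ± 0.29, adjusted p = 0.000286, and Myocd, not called between TO and testis muscle cells, by -3.31 ± 0.48, adjusted p = 0.00130. Myocd was at 6.61 and 14.5 CPM in TO stromal barcodes and 1.59 and 0.321 CPM in testis stromal barcodes. Its UMIs were found in 44 and 225 TO stromal barcodes and in only 5 and 1 testis stromal barcodes, near the floor. In muscle cells its TO and testis values overlapped, so the lower change was not a fall there. Cyp26b1 was at 141 and 239 CPM in TO stromal barcodes and 182 and 195 CPM in testis stromal barcodes and differed by -2.29 ± 0.36, adjusted p = 0.00217, and Ptch1 was at 134 and 199 CPM in TO stromal barcodes and 55.6 and 43.6 CPM in testis stromal barcodes and differed by -2.07 ± 0.16, adjusted p = 1.73e-05. For both genes the change in muscle cells was the lower. Of the 21 immediate-early and heat shock genes, 1 was higher and 4 lower by this test, and Junb, at 2216 and 1691 CPM in TO stromal barcodes and 488 and 387 CPM in testis stromal barcodes, was not called (0.16 ± 0.14, adjusted p = 0.598). Errfi1 (0.12 ± 0.15, adjusted p = 0.744) was not called either. The chemokine and interferon list had 9 of 12 genes higher in muscle cells and 0 lower.

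**Figure D5:**
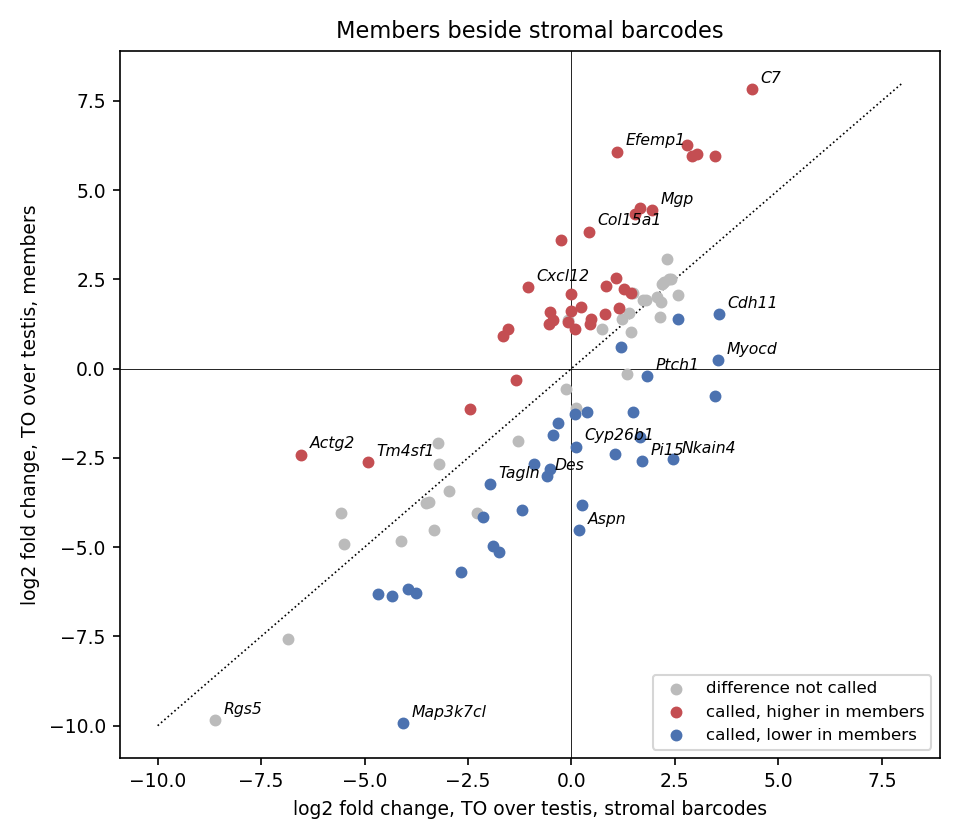
Log2 fold change of TO over testis in muscle cells (y axis) against that in stromal barcodes (x axis) for the named genes, spermatid and early germ genes left out; the dotted line marks equal change. Red points (for example C7 and Efemp1) had a significantly higher change in muscle cells, blue points (for example Aspn and Myocd) a lower one, and grey points such as Rgs5 passed neither way.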

How the data were processed

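Unsorted cells of testicular organoids and testes (2 libraries each) were profiled by 10x Genomics 3′ single-cell sequencing. The authors aligned the reads to mm10 with Cell Ranger 7.1.0 per the submitters' processing notes and deposited whole-number counts of unique molecular identifiers per gene and barcode. Intronic counting and ambient RNA removal are not given in the sources used here. Members and gene lists were chosen with earlier results of these data known.

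From the deposited counts, UMIs of the muscle cells were summed per library, since cells of a library are not replicates, and tested with edgeR 4.0.16 in R 4.3.3 (TMM, filterByExpr, quasi-likelihood F test, Benjamini-Hochberg adjustment). Of 24463 genes with a count 15155 passed the filter, and 847 with a level at least 5 times higher in the other kept barcodes of either condition were left out; the 9 genes of the rule were not called. Genes were called where the adjusted p was under 0.01 and the log2 fold change beyond 1 in either direction; for the interaction with stromal barcodes the adjusted p had to be under 0.05. The depth was 1014079 to 10473319 UMIs per library of muscle cells. On simulated counts for the comparison within muscle cells, 186 of 200 changed genes were recovered (86% of 4-fold and 100% of 8-fold changes) with 0 false calls among 14296 genes. For the interaction these were 175 of 200, 76% and 99%, with 13 false calls among 15486 genes. Only the more abundant genes were changed, and every gene had the same dispersion. The simulated counts held no library effect and no group difference in RNA of other cells. These rates therefore do not cover calls from few UMIs or the effect of the library block.

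Named were the markers and rule genes, up to 4 called genes of highest level per list (the 2 most abundant where none was called), the 8 called genes of at least 50 CPM with the greatest change in each direction, and Tnnt2, Des, Rgs5, Notch3, Gdnf, Pdgfra, Pdgfrb, Ptch1 and Tagln. A few genes of this rule are not reported here. Other named genes were chosen after their values were seen. Shares were taken after thinning each cell to 1500 UMIs, leaving out shallower cells, with Python 3.11.15, NumPy 2.4.6, SciPy 1.17.1 and pandas 2.3.3. Doublet scores came from Scrublet in Scanpy 1.11.5, and figures from Matplotlib 3.10.9. Gene positions came from GENCODE, matched for 32158 of 32285 identifiers (99.6%), and promoters from RefSeq. Alternatives covered DESeq2 1.42.0, scaling, gene filters, doublets, the member threshold, thinning, background subtraction, a replicate block and leaving out each library. Same-numbered libraries share only a number.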

Additional observations from a re-analysis of the deposited data

Results flagged for a closer look

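Each result here was singled out because the TO against testis change in muscle cells differed from that in stromal barcodes of the same libraries, by the interaction term of edgeR's quasi-likelihood test at an adjusted p below 0.05. Of the genes named above or here, 40 had a higher and 59 a lower change in muscle cells. Values are the difference between the log2 fold changes, muscle cells minus stromal barcodes, from 2 libraries per group. A lower change need not be a fall in muscle cells, where Myocd and Ptch1, for example, were not called. Higher in muscle cells among muscle, matrix and adhesion genes were Actg2 (3.88), Col15a1 (3.42), Col13a1 (2.75), Ecm1 (2.54), Lama4 (2.35), Fn1 (1.63), Col5a1 (1.45), Dcn (1.45), Prkg1 (1.29) and Lama2 (0.52). Among secreted proteins, growth factors and their receptors the higher ones were Efemp1 (4.94), C7 (3.44), Cxcl12 (3.19), Mmp2 (2.92), Serpina3n (2.58), Mgp (2.37), Ptn (2.11), Inhba (1.42), Tgfbr3 (0.77), Igf1 (0.69) and Pdgfra (0.67). Inflammatory and steroid-responsive genes with a higher change were Lgals9 (2.10), H2-D1 (1.59), Vcam1 (1.39), H2-K1 (1.38), Icam1 (1.30), Fkbp5 (0.95), Cebpd (0.92) and B2m (0.92). The other genes with a higher change were Atcayos (4.57), Cdh5 (3.83), Adam23 (3.52), Plcxd3 (2.90), Frmd5 (2.85), Plcb1 (2.51), Tm4sf1 (2.25), Insl3 (1.96), Abcc9 (1.69), Gsn (1.67) and Fdx1 (1.05). Lower in muscle cells were the contractile genes Dtna (-2.89), Tpm2 (-2.80), Synm (-2.48), Des (-2.46), Ldb3 (-2.38), Nexn (-2.13), Tpm1 (-1.91), Cryab (-1.84), Smoc2 (-1.82), Cald1 (-1.79), Myl9 (-1.67), Mylk (-1.49), Tagln (-1.27), Hspb1 (-1.18), Vcl (-1.16), Lmod1 (-1.16) and Myl6 (-0.84). Of mural and tone genes the lower ones were Hey2 (-4.49), Pde3a (-2.31), Ndufa4l2 (-2.16), Notch3 (-1.77), Ano1 (-1.68), Mustn1 (-1.64) and Cacna1c (-1.44). Matrix and adhesion genes with a lower change were Ltbp2 (-4.93), Aspn (-4.88), Fmod (-4.35), Col8a1 (-3.34), Cdh11 (-2.07), Itga9 (-1.64), Itga7 (-1.36), Col1a1 (-1.02), Col4a4 (-0.68), Col4a3 (-0.58) and Lamc3 (-0.53). Signalling, transcription and stress genes with a lower change were Myocd (-3.31), Eya2 (-2.46), Cyp26b1 (-2.29), Ptch1 (-2.07), Dnajb1 (-1.19), Plagl1 (-1.18), Hspa1a (-0.95), Nr2f2 (-0.88) and Hsp90aa1 (-0.71). The remaining genes with a lower change were Map3k7cl (-6.14), Nkain4 (-5.03), BC051019 (-4.82), Pi15 (-4.29), Car14 (-4.27), Rcan2 (-4.20), Ctxn1 (-3.60), Kcnab1 (-3.46), Fabp4 (-3.20), Crip1 (-2.99), S100a6 (-2.82), Gm13889 (-2.20), Tppp3 (-2.11), Vim (-1.19) and Aard (-0.66).

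Actg2, with the highest value among muscle genes, was at 0.220 and 0.448 CPM in TO stromal barcodes and 30.5 and 45.2 CPM in testis stromal barcodes, from 2, 10, 96 and 141 UMIs in TO replicates 1 and 2 and testis replicates 1 and 2. Insl3, a Leydig cell hormone, ran from 6.90 to 251 CPM among the 4 libraries of muscle cells, and its log2 fold change between TO and testis muscle cells was -1.69 without TO replicate 1, against 1.24 with all libraries. The part of RNA from other cells in these differences was not tested.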

How the results depend on the processing

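Against 741 higher and 2900 lower genes, the counts of higher genes moved by more than 1.5 times to 464 with the rule applied after thinning to 3000 UMIs, 1446 with all genes of any count, and 483 (with 1641 lower) where genes at 2 times in other barcodes were left out. Settings chosen after seeing the data gave 100 higher and 208 lower among 4201 genes no higher in other barcodes, and 0 and 0 after subtraction from the testis sums. Leaving out each library gave 534 to 879 higher and 2218 to 2931 lower genes, and DESeq2 gave 578 and 2939. In the replicate block, 1170 genes were higher and 3247 lower, and 0 of 175 named genes lost their call. Same-numbered libraries correlated at r = 0.162 in their deviations, over 2 pairs, and nothing but the number pairs them.

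The interaction with stromal barcodes gave 530 higher and 533 lower genes, and 26 and 24 without the library block, 894 higher with genes of any count, and 302 to 695 higher and 268 to 328 lower on leaving out each library. The Vim-positive share difference of -7.57 became -3.26 after thinning to 3000 UMIs, -1.45 with Vim at 2 and -15.7 with Vim at 10 per 10000, -3.55 without the mural-gene cells, and -10.3 to -4.78 on leaving out each library. Without thinning, the TO minus testis share of cells with a UMI was -52.1 points for Tagln, -9.90 for Rgs5 and 57.3 for Pdgfra, and that of Tnnt2 changed sign, from -3.34 to 4.97 points.

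After subtraction from the testis sums the list medians were -1.37 (contractile), -0.037 (transcription factors, reversed), -0.68 (tone, reversed), -2.61 (mural), -0.38 (basement membrane, reversed), -0.47 (interstitial matrix, reversed), -0.99 (adhesion), -0.39 (niche, reversed), 0.10 (receptors), 0.99 (steroid response), 0.93 (immediate-early), -0.39 (hypoxia, reversed) and 0.38 (imprinted), with 0.06 over all genes. Without the mural-gene cells they were 0.30 (tone), -0.077 (mural, with Rgs5, Higd1b and Rgs4 absent by construction), -0.17 (adhesion), 0.23 (basement membrane), 0.048 (interstitial matrix) and 1.25 (imprinted). With no gene left out they were -2.65 (mural), -0.20 (adhesion), 0.15 (niche) and 2.43 (inflammatory), and without a scaling factor -0.20 (adhesion). Genes called in either fit that changed sign were Ccnd1 (0.72), Fabp4 (0.69), Kcnab1 (0.024) and Synpo2 (0.072) without the mural-gene cells, where the uncalled Pdgfrb (1.08), Lamc3 (-0.21) and Gli1 (-0.16) also did, and Insl3 without TO replicate 1 (-1.69, up to 4.19 on leaving out each library). Beyond the construction of each setting, the cause was not tested. The planned subtraction in all libraries was not run, since the scale in TO replicate 1 was 1.26, above 1.

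Precision was limited by 2 libraries per group and by testis sums of 1755758 and 1014079 UMIs. Spermatid RNA was present in the testis droplets, and its effect on precision was not tested.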

Other observations

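Barcodes that met the muscle part of the rule but not its exclusions were left out of every comparison. Before the exclusions 3558 and 2231 barcodes of the TO libraries and 719 and 432 of the testis libraries held at least 8 muscle-gene UMIs per 10000 and at least 2 of the 3 muscle genes, Myh11 among them. A further 803, 454, 86 and 42 barcodes reached that level without meeting the detection part. UMIs of Clec3b, Ebf1 and Adam12, genes of interstitial stroma, removed 1189 and 1085 of them in TOs and 128 and 146 in testes, UMIs of the Sertoli genes Sox9 and Cldn11 removed 130, 23, 3 and 1, and Ptprc removed 15, 28, 3 and 1 (TO replicates 1 and 2, then testis replicates 1 and 2; a barcode could fail several parts). The members were 63.9% and 50.2% of these barcodes in TOs and 81.6% and 66.0% in testes. Deeper cells reach a fixed number of stromal UMIs more readily, and whether the barcodes with both gene sets were single cells was not tested.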
